A study of Mus musculus with 4 samples.

Results

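The GIMAP genes (GTPases of immunity-associated proteins) were followed in regulatory T cells (Tregs) taken from omental tumors and from spleen. The members were the 8 gene symbols Gimap1, Gimap3, Gimap4, Gimap5, Gimap6, Gimap7, Gimap8 and Gimap9, chosen by name, and all 8 were among the 24421 genes in the count files. No other counted feature had a symbol starting with Gimap. The host mice carried the congenic allele CD45.1 and EG7.1.15 tumor cells injected into the peritoneal cavity, and each was joined by surgery for 14 days to a tumor-free CD45.1- partner. The labels give the strain as B6 Foxp3-DTR/GFP, in which Tregs carry a green fluorescent reporter. The cells analysed were the partner's Tregs that had entered the host, sorted as live CD45.1-, CD45.2+, B220-, CD4+, CD25+ and Foxp3(GFP)+ cells at day 14 after tumor injection. Omental tumor and spleen each gave 2 libraries, from mouse 2 and mouse 3, so both tissues of a mouse had the same host, the same tumor and the same partner. The comparison asks how Tregs that homed to the omental tumor differ from those that homed to the spleen. No tumor-free host is among these libraries, so the spleen samples also come from tumor-bearing animals.

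GIMAP proteins are small GTP-binding proteins found mainly in lymphocytes, where most sit on internal membranes such as those of lysosomes, mitochondria, the endoplasmic reticulum and the Golgi. They are known for their part in the survival of mature T cells: animals that lack Gimap5 lose peripheral T cells, and loss of Gimap1 depletes both T and B cells. Their transcripts are typical of resting T cells and are known to go down when T cells are activated.

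The 8 genes lie side by side on chromosome 6 (mm10), in a cluster from 48647186 to 48770851 that held no other counted gene. In chromosome order they are Gimap8 (48647186 to 48660875), Gimap9 (48676121 to 48679116), Gimap4 (48684578 to 48692062), Gimap6 (48701583 to 48708244), Gimap7 (48718621 to 48724636), Gimap1 (48739047 to 48743795), Gimap5 (48746197 to 48754200) and Gimap3 (48764464 to 48770851). Gimap6 and Gimap3 are transcribed from the minus strand and the other 6 from the plus strand. All values below are reads counted over a whole gene, which take in exons of the coding sequence and of the untranslated regions.

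Each gene has a start site of its own, and Gimap8 has a further start, so the 8 genes gave 9 upstream windows. The stretches directly upstream are shown for Gimap3, Gimap4, Gimap5 and Gimap6. The near copies Gimap3 and Gimap5 and the abundant Gimap4 and Gimap6 can thus be compared. The motifs and the stretches printed were chosen after the sequences had been seen. Each is the 80 bases before the RefSeq start (build GRCm38.p6), written 5′ to 3′ on the gene's strand. Capitals mark the core letters of sites bound by ETS factors (GGAAGT or its reverse complement ACTTCC) and by KLF and SP factors (CACCC or GGGTG).
Gimap3, chr6:48770852-48770931, minus strand: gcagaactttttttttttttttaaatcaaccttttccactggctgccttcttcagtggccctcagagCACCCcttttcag
Gimap4, chr6:48684498-48684577, plus strand: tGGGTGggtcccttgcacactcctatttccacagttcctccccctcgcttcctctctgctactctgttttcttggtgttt
Gimap5, chr6:48746117-48746196, plus strand: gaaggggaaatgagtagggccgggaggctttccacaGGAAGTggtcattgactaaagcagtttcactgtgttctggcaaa
Gimap6, chr6:48708245-48708324, minus strand: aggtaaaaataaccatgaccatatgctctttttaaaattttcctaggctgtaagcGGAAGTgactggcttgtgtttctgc
Over the full 250 bases upstream, the ETS core was present for 2 of the 8 genes, Gimap5 and Gimap6, and in 19.7% of 32851 such windows in the RefSeq table. The KLF core was present for 5 of the 8 (Gimap3, Gimap4, Gimap5, Gimap8 and Gimap9). By window this was 6 of the 9, where 52.0% of all windows held it. The RUNX core TGTGGT (or ACCACA) was present for Gimap1, Gimap4 and Gimap7, against 14.0% of windows. The FOXO core GTAAACA (or TGTTTAC) was present for Gimap3 alone, against 3.17% of windows. The TATA core TATAAA (or TTTATA) was present for Gimap6 alone, against 12.4% of windows. None of the 5 letter strings was shared by all members, and a match of letters does not show binding.

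Gimap3 and Gimap5 are near copies of each other, which bears on how their reads were counted. Their longest reading frames were identical at 89.6% of the bases of the shorter one, the highest value among the 28 pairs of members. The next pair, Gimap7 and Gimap9, reached 65.5%, and the lowest, Gimap6 and Gimap7, 41.4%. An annotated read-through transcript, Gm28053, runs through Gimap7, Gimap1 and Gimap5 and was left out of the shares that follow. Of the 50-base windows of the longest coding transcript, 9.83% for Gimap3 and 9.98% for Gimap5 also occur in a transcript of another gene. For Gimap5 that gene was Gimap3 alone. For Gimap4, Gimap7, Gimap8 and Gimap9 this share was 0%. Reads that lie within the windows shared by Gimap3 and Gimap5 would not align uniquely. In omental tumor the non-unique class held 33.5% of all file entries in mouse 2 and 49.9% in mouse 3, while in spleen it held 30.3% and 28.0%. Its part in the low Gimap3 value of the omental library of mouse 3, given below, was not tested. The split between Gimap3 and Gimap5 is therefore less certain than the values of the other members.

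As a family, Gimap transcripts took a smaller share of the library in omental tumor than in spleen, when the 8 genes were summed. In omental tumor the summed level, in TMM-scaled CPM (read counts scaled to library size), was 2546 for mouse 2 and 2283 for mouse 3. In spleen it was 5819 and 7948. Both omental values lay below both spleen values, and the means were 2414 ± 185 and 6883 ± 1505 CPM (SD, n = 2 per tissue). The spleen level was 2.29 times the omental level in mouse 2 and 3.48 times in mouse 3. Scaled by the library's gene total alone, without TMM factors, the omental sums were 2912 and 2396 CPM, the spleen sums 5953 and 6387 CPM, and the ratios 2.04 and 2.67. With 2 libraries a tissue no exact permutation test of a single value can go below p = 0.333.

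None of the 8 genes passed the test singly. All 8 were tested, and edgeR's quasi-likelihood test, fitted without a term for mouse, called 0 of them at an adjusted p of 0.05. Over all 16322 genes tested, 0.263% were called lower and 1.16% higher in omental tumor. At an unadjusted p under 0.05, 1 of the 8, Gimap3, was lower, against 5.28% of all genes (10.2% in either direction). DESeq2 and limma-voom also called 0 of the 8, with 3 of the 8 at an unadjusted p under 0.05 in each. Of the 16322 genes tested, 2064 in DESeq2 and 1743 in limma-voom had an unadjusted p under 0.05 in either direction. All 8 fitted log2 fold changes were negative, as were 46.1% of those of all genes, and they ran from -2.20 to -0.58. Their median was -1.20, where the median of all genes was 0.13. Within mouse 2 the median log2 ratio of the members was -1.09 and within mouse 3 it was -1.28, where those of all genes were 0.07 and 0.09. For 6 of the 8 genes both omental libraries lay below both spleen libraries, a pattern met by 25.4% of all genes. Only 3 of the 8, Gimap3, Gimap6 and Gimap9, stood at least 2-fold lower in omental tumor in both mice, against 5.62% of all genes.

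**Figure D1:**
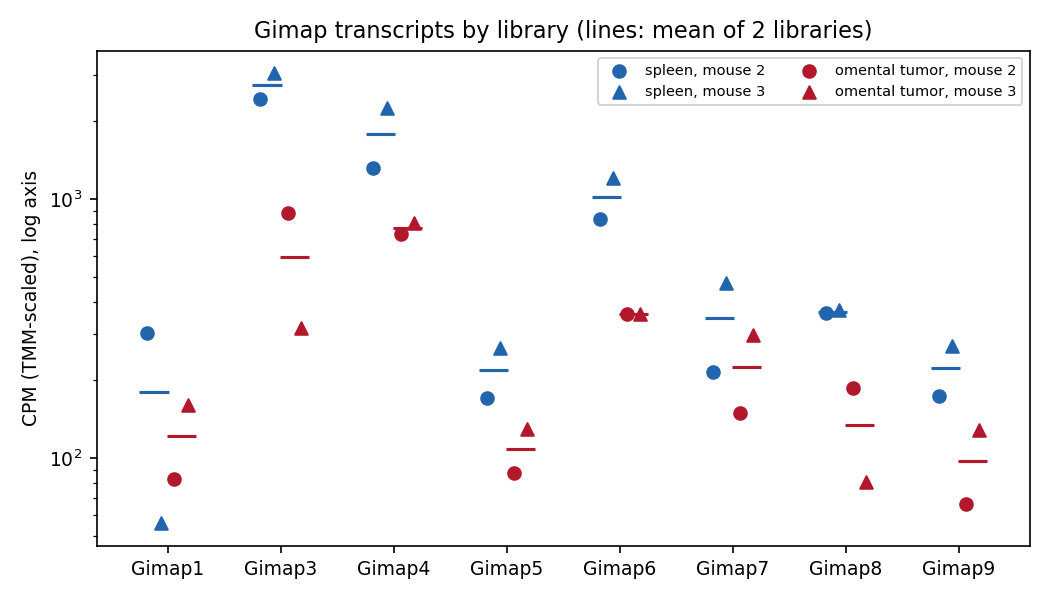
Level of each Gimap gene in the 4 libraries, in TMM-scaled CPM on a log axis, with circles for mouse 2, triangles for mouse 3 and lines for the mean of the 2 libraries of a tissue. The omental points lie below the spleen points for 6 of the 8 genes, while for Gimap1 and Gimap7 they overlap.

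Gimap3, which encodes a protein of the mitochondrial outer membrane, had the largest difference of the 8. Its omental level was 879 CPM for mouse 2 and 318 CPM for mouse 3, and its spleen level 2440.4 and 3058 CPM. The groups did not overlap, and the omental library of mouse 3 was lowest by far. The fitted log2 fold change was -2.20 (SE 1.10, adjusted p = 0.476, edgeR's quasi-likelihood test), and the log2 ratio was -1.47 in mouse 2 and -3.27 in mouse 3. The spleen level was thus 2.77 times the omental level in 1 mouse and 9.62 times in the other. DESeq2 gave Gimap3 an adjusted p of 0.0520, just above the threshold, and over all alternatives the adjusted p ran from 0.0520 to 0.99993. Only 1.45% of all genes tested had a lower fitted log2 fold change. In spleen Gimap3 was also among the most abundant transcripts, with 99.9% of tested genes below its mean CPM.

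Gimap5, the close paralog of Gimap3 and the member best known for keeping resting T cells alive, differed less. Its levels were 87.4 and 129 CPM in omental tumor and 170.1 and 266 CPM in spleen. The groups did not overlap, and the ratio of spleen to omental tumor was close in the mice, at 1.95 in mouse 2 and 2.07 in mouse 3. The fitted log2 fold change was -1.01 (SE 0.76, adjusted p = 0.671). In the same libraries Gimap3 differed by 2.77 and 9.62 times, so the near copies were unlike in mouse 3; no test of this difference is possible within 1 mouse.

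Gimap8, a long member whose protein holds several GTPase domains, followed Gimap3 more closely than any other gene of the family did. It stood at 187 and 80.8 CPM in omental tumor and at 362 and 372 CPM in spleen. The spleen libraries were nearly equal and the omental library of mouse 3 was again the lowest of the 4. Its fitted log2 fold change was -1.45 (SE 0.79, adjusted p = 0.530), and the log2 ratio was -0.95 for mouse 2 and -2.20 for mouse 3. The distance between the centred log2 profiles of Gimap8 and Gimap3 over the 4 libraries was 0.838, and that between Gimap8 and Gimap7 was 2.00.

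Gimap6, which binds the autophagy protein Gabarapl2, gave the most even values between mice in the tumor. Its levels were 359 CPM in mouse 2 and 361 CPM in mouse 3 in omental tumor, against 838 and 1201 CPM in spleen. The groups were well apart, with the spleen 2.34 times higher in mouse 2 and 3.33 times higher in mouse 3. The fitted log2 fold change was -1.502 (SE 0.91, adjusted p = 0.587).

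Gimap4, which affects how T cells die after an apoptotic signal, was abundant in both tissues. It stood at 734 and 809 CPM in omental tumor and 1314 and 2248 CPM in spleen, so that the groups did not overlap. The fitted log2 fold change was -1.21 (SE 1.01, adjusted p = 0.701). The spleen level was 1.79 times the omental level in mouse 2 and 2.78 times in mouse 3. Gimap9 stood at 66.6 and 128 CPM in omental tumor and 173 and 270.02 CPM in spleen, again without overlap. Its fitted log2 fold change was -1.19 (SE 0.76, adjusted p = 0.611), and it was lower in the omental library of mouse 2 than in that of mouse 3, the reverse of Gimap3 and Gimap8.

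Gimap7, whose protein stimulates GTP hydrolysis as a dimer, had overlapping groups. Its levels were 149 and 298 CPM in omental tumor and 215 and 476 CPM in spleen, so the omental library of mouse 3 lay above the spleen library of mouse 2. Within each mouse the spleen was higher, by 1.44 times in mouse 2 and 1.60 times in mouse 3. The fitted log2 fold change was -0.63 (SE 0.79, adjusted p = 0.786), and it turned to 0.41 without the spleen library of mouse 3.

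Gimap1, needed for the survival of mature T and B cells, did not follow the rest of the family. It stood at 82.8 and 160 CPM in omental tumor and at 305 and 56.0 CPM in spleen. The highest and the lowest of the 4 values were the spleen libraries, and the mice pointed in opposite directions, with a log2 ratio of -1.88 for mouse 2 and of 1.51 for mouse 3. The omental raw counts were 631 and 630 and the spleen raw counts 3116 and 612, although the spleen library of mouse 3 had the highest gene total. Its fitted log2 fold change was -0.58 (SE 0.75, adjusted p = 0.790) and turned to 1.06 without the spleen library of mouse 2. An annotated antisense gene, Gimap1os, covers 6.88% of the exon bases of Gimap1 and the read-through Gm28053 covers 13.2%. Neither is a feature of the count files, and the library kits do not mark strand, so reads of Gimap1os in that overlap cannot be told from those of Gimap1.

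**Figure D2:**
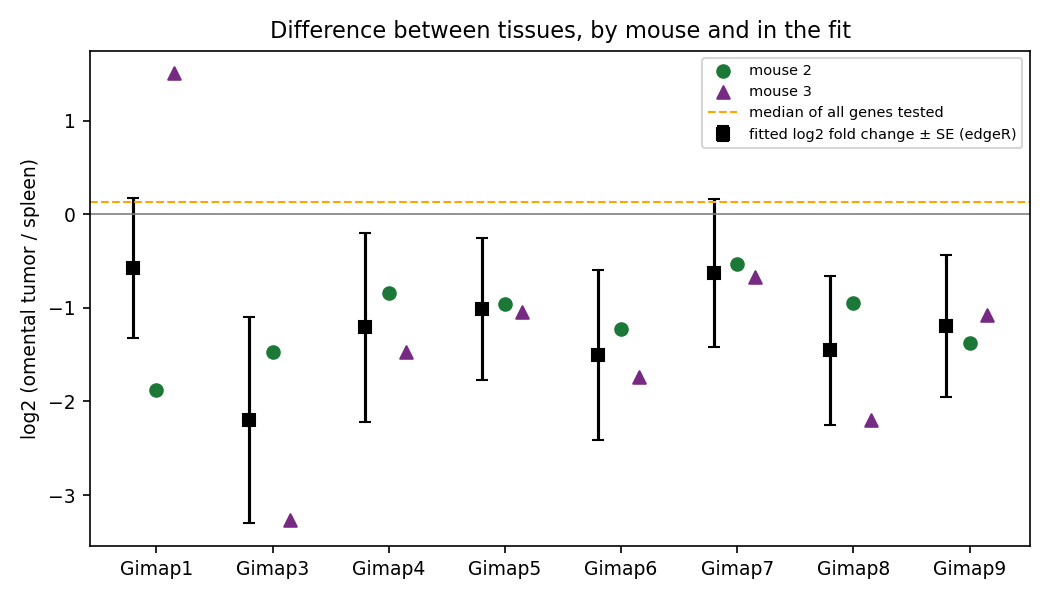
Difference between tissues for each Gimap gene, as log2 of omental tumor over spleen, with the edgeR estimate and its SE as squares, mouse 2 as circles, mouse 3 as triangles and the median of all genes (0.13) as a dashed line. Gimap1 is the gene whose mice lie on opposite sides of 0, and Gimap3 has the lowest estimate, -2.20.

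Compared per kilobase of exon, Gimap3 and Gimap4 were the most abundant members in spleen, at 1067 ± 169 and 970 ± 359 CPM per kb (SD, n = 2), levels that overlapped. Gimap6 followed at 319 ± 80.4 and Gimap7 at 272 ± 145 CPM per kb, which overlapped each other and lay below the first pair in every library. Gimap9 (160.1 ± 49.5), Gimap1 (121 ± 118), Gimap5 (112 ± 34.9) and Gimap8 (99.2 ± 1.90 CPM per kb) came last. Gimap9 still overlapped Gimap7, and each of these 4 differed from the next by less than the spread between libraries. In omental tumor Gimap4 was the highest, at 420.1 ± 29.1 CPM per kb, and its 2 libraries lay above both libraries of every other member. Gimap3 stood at 232 ± 154 and Gimap7 at 176 ± 83.02 CPM per kb, which overlapped, and Gimap6, at 113 ± 0.445 CPM per kb, lay below both. Gimap1 (80.9 ± 36.2), Gimap9 (70.2 ± 31.3), Gimap5 (55.4 ± 15.004) and Gimap8 (36.2 ± 20.3 CPM per kb) came last, and each overlapped the next. Exon lengths came from the GENCODE M21 basic annotation, which may differ from the one the reads were counted with.

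The make-up of the family differed most in the omental library of mouse 3. Gimap3 gave 41.9% of all Gimap counts in the spleen of mouse 2 (95% Wilson interval 41.5 to 42.3), 38.5% in the spleen of mouse 3 (38.2 to 38.8) and 34.6% in the omental library of mouse 2 (33.9 to 35.2). In the omental library of mouse 3 it gave 13.9% (13.2 to 14.6). Gimap7 gave 13.1% there (12.4 to 13.8), against 3.70% (3.55 to 3.86) and 5.99% (5.83 to 6.15) in spleen and 5.86% (5.54 to 6.20) in the omental library of mouse 2. The share of Gimap6 was steady, between 14.1% and 15.8% in all 4 libraries. Gimap4 gave 22.6% and 28.3% in spleen and 28.8% and 35.4% in omental tumor. These intervals treat every read as independent and do not cover the spread between mice. The reads carry no molecular identifiers, so copies of the same molecule cannot be told apart and the intervals may be too narrow.

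**Figure D3:**
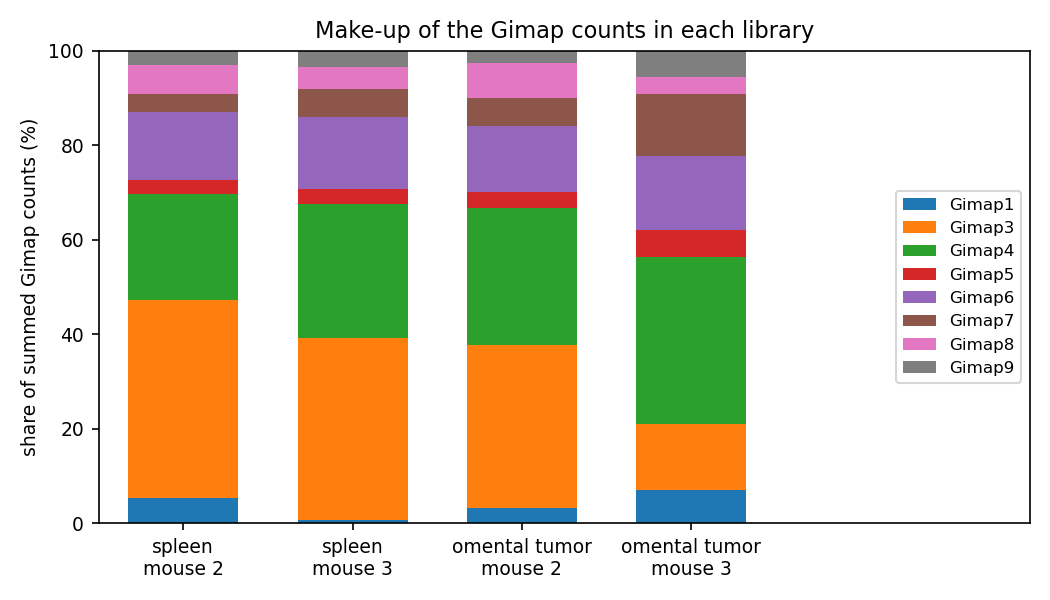
Share of each member in the summed Gimap counts of each library, in percent. Gimap3 takes 13.9% in the omental library of mouse 3 and between 34.6% and 41.9% in the other 3 libraries.

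Transcripts that mark all T cells were also lower in the omental libraries, so the Gimap counts were set against them within each library. The 16 genes of the T cell list, among them the CD3 subunits, Lck and Cd2, summed to 5487 and 5386 CPM in omental tumor and to 8040.3 and 12494 CPM in spleen. The log2 fold change was negative for all 16, the median was -1.16, and edgeR called 0 of them lower or higher. The smallest p values were those of Cd27, a costimulatory receptor (-1.60), the signalling regulator Ubash3a (-1.53), the CD3 zeta chain gene Cd247 (-1.54) and Cd6 (-1.73), with adjusted p of at least 0.470. In bulk RNA, fewer T cells in a sample and less of these transcripts per cell cannot be told apart. For every 100 counts of the T cell list there were 46.4 and 42.4 Gimap counts in omental tumor and 72.4 and 63.6 in spleen. The groups did not overlap, and the spleen ratio was 1.56 times the omental ratio in mouse 2 and 1.5005 times in mouse 3. This is smaller than the difference in CPM, which was 2.29 and 3.48 times. Without Gimap3 the other 7 genes gave ratios of 1.38 in mouse 2 and 1.07 in mouse 3.

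Member by member, 4 of the 8 genes were lower in omental tumor in both mice when set against the T cell list. Gimap3 was lower by 1.89 times in mouse 2 and 4.15 times in mouse 3, Gimap6 by 1.59 and 1.43 times, Gimap8 by 1.32 and 1.99 times and Gimap4 by 1.22 and 1.20 times. Gimap7 was higher in omental tumor on this scale in mouse 3, with a spleen to omental ratio of 0.688. In mouse 2 it was nearly equal in both tissues, at 0.985. Gimap1, Gimap5 and Gimap9 pointed in different directions in the mice. The 12 genes that define Tregs summed to 5978 and 7224 CPM in omental tumor and 5480.04 and 8162 CPM in spleen, which overlapped, but their members did not go one way. Fitted log2 fold changes were negative for 8 of the 12, with a median of -0.64, and edgeR called 0 of them. For 6 (Foxp3, Il2ra, Il2rb, Ikzf4, Nrp1 and Izumo1r) both omental libraries lay below both spleen libraries, a pattern met by 25.4% of all genes. The smallest p values were those of Nrp1 (-1.94), Izumo1r (-1.96), Ikzf4 (-1.81) and Il2rb (-1.42). Ctla4 (1239 and 1290 CPM in omental tumor, 391 and 764 in spleen) and Tnfrsf4 (1258 and 2931 against 531 and 1118 CPM) are among the most abundant of the list. Both had both omental libraries above both spleen libraries, a pattern met by 16.4% of all genes. Against 100 counts of the 12 genes there were 42.6 and 31.6 Gimap counts in omental tumor and 106 and 97.4 in spleen, ratios of 2.49 and 3.08. These ratios rest on a sum to which abundant genes such as Tnfrsf4 and Ctla4 give much of the counts. How far the Gimap genes differ thus depended on the genes they were set against.

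**Figure D4:**
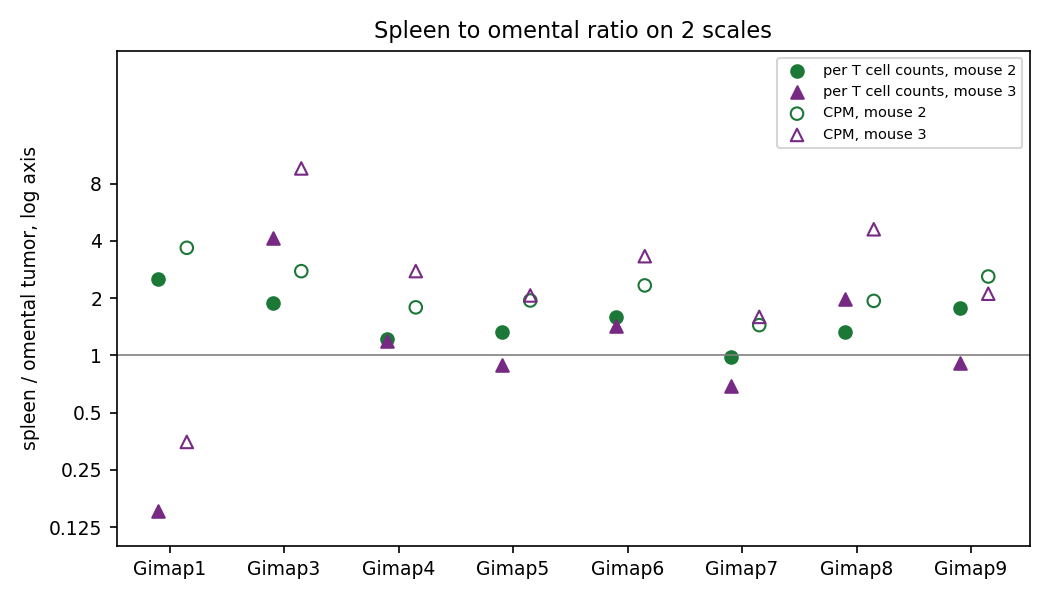
Ratio of spleen to omental tumor for each Gimap gene on a log axis, with filled points for counts set against the 16 T cell genes and open points for CPM, circles for mouse 2 and triangles for mouse 3. Values above 1 are higher in spleen, and filled points of both mice lie above 1 for Gimap3, Gimap4, Gimap6 and Gimap8.

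Markers of other cells moved between the libraries as well. Neutrophil markers summed to 124 and 1402 CPM in the omental libraries of mouse 2 and mouse 3 and to 97.4 and 63.3 CPM in spleen. The most abundant were S100a9 (1.58 and 476 CPM in omental tumor, 9.10 and 7.50 in spleen) and S100a8 (0.131 and 412 against 6.26 and 9.52 CPM), so the excess lay in the omental library of mouse 3. Macrophage markers summed to 460 and 760 CPM in omental tumor and 211 and 439 CPM in spleen. The excess came from Lyz2 (250.1 and 297 against 6.85 and 61.8 CPM) and Cd14 (23.8 and 273 against 2.64 and 4.85 CPM), the 2 that edgeR called higher, while 6 of the 10 tested were negative, Csf1r among them (-1.74), and the median was -0.43. Fibroblast markers, led by Col3a1 and Dcn, summed to 183 and 28.9 against 15.6 and 7.32 CPM. B cells and blood vessel cells can carry Gimap transcripts too. B cell markers, led by Cd79b and Ms4a1, summed to 105 and 28.9 CPM in omental tumor and 57.7 and 68.2 CPM in spleen. Of the 10 endothelial markers, which summed to 135 and 91.6 CPM in omental tumor and 229 and 260.1 CPM in spleen, most counts belonged to Pecam1 (80.1 and 31.1 CPM, and 208 and 255 in spleen), while Cldn5 lay below 0.5 CPM in every library. Of the 8 endothelial markers tested, 1 had a negative fitted log2 fold change, Pecam1 (-2.05), and the median of the list was 2.14. Vwf stood at 18.9 and 17.2 CPM in omental tumor and 4.89 and 1.28 CPM in spleen. Early response and heat shock genes, which can follow handling of cells, were led by Junb and Fos. The list summed to 1705 and 2051 CPM in omental tumor and 1000 and 220.3 CPM in spleen. Of the 10 tested, 2 had a negative fitted log2 fold change. The median log2 ratio of the list was 0.69 in mouse 2 and 2.69 in mouse 3. The part of these markers and genes in the Gimap values was not tested. Foxp3, Il2ra, Cd4 and Ptprc, on which the sort was based, were counted in all 4 libraries, and edgeR called none of them. All 4 had both omental libraries below both spleen libraries, a pattern met by 25.4% of all genes. The omental library of mouse 3 was 8.83 times lower than its spleen library for Cd4, 4.36 times for Ptprc, 2.77 times for Il2ra and 1.71 times for Foxp3. In mouse 2 these ratios were 1.51, 1.25, 1.01 and 1.39. Their part in the Gimap values was not tested.

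The genes on either side of the cluster were read in the same fit. Of the 5 counted genes before Gimap8, 4 were tested, and their fitted log2 fold changes were -0.16 for Gm5111, -0.16 for the zinc finger gene Repin1, -1.36 for Zfp775 and -0.40 for AI854703. These 4 were low, at most 13.3 CPM in any library. The estimates of Gm5111, Repin1 and AI854703 changed sign with upper-quartile factors, and those of Gm5111 and Repin1 also with library totals alone. After Gimap3 come Tmem176b and Tmem176a, which encode membrane proteins of immune cells. Tmem176b stood at 36.5 and 52.2 CPM in omental tumor and 9.69 and 21.9 CPM in spleen, and Tmem176a at 17.6 and 29.6 against 6.26 and 13.1 CPM. Both were thus higher in both omental libraries than in either spleen library, a pattern met by 16.4% of all genes. The opposite order, seen for 6 of the 8 Gimap genes, was met by 25.4% of all genes. In edgeR the fitted log2 fold changes were 1.49 (adjusted p = 0.513) for Tmem176b and 1.28 (adjusted p = 0.627) for Tmem176a. Aoc1 had a value of 1.89 and Doxl2 of 0.66 at 5.51 CPM or less in any library. None of the neighbours tested passed edgeR's threshold.

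**Figure D5:**
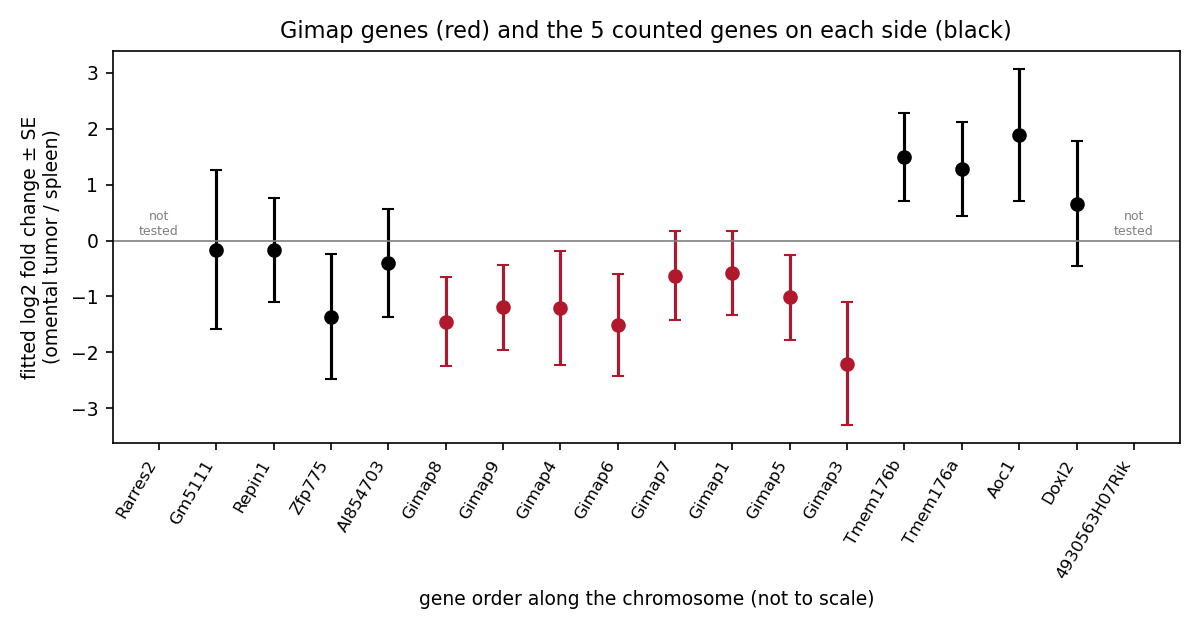
Fitted log2 fold change with its SE for the Gimap genes in red and for the 5 counted genes on each side in black, in the order of the chromosome and not to scale. All 8 Gimap estimates lie below 0, and the 4 tested genes after Gimap3 lie above 0, with Tmem176b at 1.49.

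Of 7 genes tested whose proteins bind GIMAP proteins or act with them, 1 was called lower and 0 higher, where 0.263% and 1.16% of all genes were, with a median log2 fold change of 0.04. The called gene was Bcl2, the survival factor that Gimap3 and Gimap5 proteins have been found with. It stood at 30.5 and 18.5 CPM in omental tumor and 306 and 228 CPM in spleen, far apart in both mice. Its log2 fold change was -3.44 (adjusted p = 0.00414, edgeR), and leaving out any 1 library ended the call (adjusted p 0.0651 to 0.253). So did scaling by library totals (0.0997), keeping all genes (0.314) and a minimum count of 50 (0.113). The pro-death factor Bax stood at 80.1 and 100.004 CPM in omental tumor and 80.6 and 89.7 CPM in spleen. Gabarapl2, the partner of Gimap6, stood at 146 and 280 against 168 and 252 CPM. Gsk3b, a kinase linked to Gimap5, stood at 29.8 and 106 CPM in omental tumor and 33.4 and 28.3 CPM in spleen, high in the omental library of mouse 3 only. The other members, Bcl2l1, Bcl2l11 and Bad, had log2 fold changes of 0.59, -0.31 and 0.04.

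Genes typical of resting T cells had a lower median than the Gimap genes. Of 20 tested, 3 were called lower and 0 higher, 19 were negative and the median was -1.63, where 0.263% of all genes were called lower and 46.1% were negative. The called genes were Id3, an inhibitor of E proteins (-5.32, adjusted p = 2.31e-06), the sphingosine 1-phosphate receptor S1pr1 (-3.28, adjusted p = 0.0337) and Pik3ip1, an inhibitor of PI3 kinase (-3.06, adjusted p = 0.0179). Leaving out any 1 library also ended the calls of S1pr1 (adjusted p 0.0537 to 0.745) and Pik3ip1 (0.0765 to 0.548). Other scalings ended them as well: with RLE factors, upper-quartile factors and library totals the adjusted p was 0.0883, 0.0922 and 0.236 for S1pr1 and 0.0552, 0.110 and 0.294 for Pik3ip1, which limma-voom gave 0.0893. With the replicate block the adjusted p of Pik3ip1 was 0.101. Id3 kept its call without any 1 library and lost it with no filter (0.158) and with a minimum count of 50 (0.0503), and those settings ended the other 2 calls as well. Txnip, a regulator of glucose uptake, stood at 93.5 and 145 CPM in omental tumor and 821 and 1155 CPM in spleen (-3.05, adjusted p = 0.0651 in edgeR). It passed in DESeq2 (adjusted p = 0.00286) and limma-voom (0.00756), and in no other setting run.

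Other families of GTPases served as a reference. Of the GTPases that interferon induces (immunity-related GTPases, guanylate-binding proteins and Mx proteins), 20 were tested, 16 were negative and 0 were called, with a median log2 fold change of -1.19. The 4 with the smallest p were Gbp2b (-2.42, adjusted p = 0.132), Tgtp1 (-2.28), Gbp10 (-2.13) and Tgtp2 (-1.96). Septins, the structural relatives of GIMAP proteins that build filaments, had a median of 0.09 over 12 tested genes, of which 5 were negative and 0 called. The 4 with the smallest p, Sept9 (-1.77), Sept1 (-1.495), Sept12 (2.44) and Sept6 (-1.29), differed in sign, and the smallest adjusted p among them was 0.418.

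The genes whose profile over the 4 libraries lay nearest to the mean profile of the 8 members were Peo1, Abhd11, Ptp4a3, Acp6, Oxr1, Tpra1, Aptx, H2-K2, Mpp1 and N4bp2l1. Likeness was the Euclidean distance of centred log2 CPM, which ran from 0.0920 for Peo1 to 0.215 for N4bp2l1 among 6465 genes with a mean of at least 32 CPM in the higher tissue. The members themselves lay at 0.364 for Gimap6, 0.405 for Gimap4 and 0.485 for Gimap5, and at 2.21 for Gimap1, the farthest. Peo1, which encodes the mitochondrial DNA helicase Twinkle, stood at 16.1 and 16.7 CPM in omental tumor and 37.6 and 43.0 CPM in spleen. With only 4 libraries, such likeness describes these samples and nothing more.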

How the data were processed

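RNA of sorted Tregs was made into cDNA with SMART-seq v4 and into libraries with Nextera XT, per the labels' protocols. The authors deposited raw read counts by gene symbol, made with Trim Galore, TopHat2, SAMtools and HTSeq on mm10, per the submitters' processing notes. The sources used here give no versions, gene annotation or strand setting. The 5 HTSeq summary entries of each file were left out of library sizes and tests. Genes received between 17.1% and 46.0% of all entries. Entries outside any counted gene made up 48.9% in omental tumor and 44.2% in spleen for mouse 2. For mouse 3 they made up 27.3% and 24.8%. The part of this difference between mice in the values was not tested. Gene totals were 6660230 and 3764508 counts in omental tumor and 9989005 and 13598631 in spleen (mouse 2 and mouse 3 in each), so 1 count was worth at most 0.253 CPM. The labels do not say whether cells of several animals were pooled.

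All genes were fitted in R 4.3.3 with edgeR 4.0.16: filterByExpr with a minimum count of 10, TMM factors (1.15, 1.05, 1.03 and 0.804 in the same order), estimateDisp, glmQLFit and glmQLFTest, tissue as the only term, 2 residual degrees of freedom and Benjamini-Hochberg adjustment over 16322 genes at 0.05. The planned design named glmQLFit's defaults, and this version's default is the legacy form, which the plan also listed as an alternative. The non-legacy form was taken as the reported fit after both had been run. It called 233 genes and the legacy form 215, and neither called a Gimap gene (adjusted p of Gimap3 0.476 and 0.415). The prior degrees of freedom were infinite, so neither SE nor p reflects a gene's own spread between mice. The SE was derived from the fitted log2 fold change and its F statistic. Ratios within a mouse are log2 CPM with a prior count of 2. DESeq2 1.42.0 and limma 3.58.1 (voom) were alternatives. The mouse number marks the same animal in both tissues. It was used as pairing for the ratios within a mouse and in the replicate block, and the reported fit left it out. Deviations of same-numbered libraries correlated at 0.234 over genes, a value that 2 libraries per tissue force to be equal for both mice.

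The members and gene lists were chosen with earlier results of these data known, and the promoter motifs after the sequences were seen. The genes named were the members, 5 counted genes on each side, the 10 of most similar profile and the sort markers. From each biological list came the 4 members with the smallest p. The 2 most abundant came from each other-cell or early response list described. Others, such as the remaining partner genes, Cd2, Lck, Ctla4, Tnfrsf4, Csf1r and Cldn5, were named after their values were seen. The lists for fat and mesothelium, dendritic cells, CD8 and NK cells and red cells summed to under 70 CPM in every library and are not described further. None of the 13 listed mitochondrial messenger RNAs was among the counted symbols. Upstream sequences are RefSeq's (GRCm38.p6), for 8 of 8 members; protein sequences were not used here.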

Additional observations from a re-analysis of the deposited data

How the results depend on the processing

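The number of Gimap genes called was 0 under all 14 alternatives, and the smallest adjusted p was the 0.0520 of Gimap3 in DESeq2. Their median log2 fold change was negative in all 13 fits: -1.07 with RLE factors, -0.64 with upper-quartile factors, -0.90 with library totals alone, -1.36 with no filter on low counts, -0.89 with a minimum count of 50, -1.07 in DESeq2, and from -1.53 to -0.72 with 1 library left out. Upper-quartile factors moved the median of all genes by 0.494 and library totals by 0.272, and relative to all genes the Gimap median was -1.33 in the reported fit, -1.26 and -1.30 under these scalings, -0.872 with a minimum count of 50, and from -1.91 to -0.664 with 1 library left out. With the replicate block (pairing by mouse) 261 genes were called, Gimap3 stood at -2.37 (adjusted p = 0.139), and no Gimap call changed. Calls over all genes, 233 as reported, were 28 with library totals alone, 0 with no filter (edgeR, 1903 at an unadjusted p under 0.05), 4 with a minimum count of 50, 358 in DESeq2, 146 at an adjusted p of 0.01, and from 60 to 273 with 1 library left out. The spleen to omental ratio of Gimap counts, 1.53 against T cell genes, was 2.74 against Treg genes, 2.33 against gene totals and from 1.43 to 1.63 with 1 library left out. With 1 library left out, Gimap1 ran from -1.20 to 1.06, Gimap7 from -1.30 to 0.41, Gm5111 from -1.79 to 0.30, Repin1 from -1.48 to 0.93, Zfp775 from -2.08 to 1.74 and Doxl2 from -0.95 to 4.75. Gm5111 was 0.24 with upper-quartile factors, 0.0663 with library totals and 1.47 in limma-voom, Repin1 0.24, 0.0628 and, with a minimum count of 50, 0.0019, and AI854703 0.11 with upper-quartile factors. The cause of these shifts was not tested. A fit without a library assumes that the lone library of a tissue varies like the other tissue's pair. List medians, other named genes and the left-out libraries of the ratio were added after seeing the data.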
